A study of Homo sapiens with 12 samples.

Results

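The 10 genes described here are NFE2L2, which encodes the transcription factor NRF2, its sensor KEAP1, and 8 genes that NRF2 is known to activate: GCLM, GCLC, TXN, TXNRD1, PRDX1, SRXN1, HMOX1 and OSGIN1. They were taken by symbol from 58735 rows of gene counts, all 10 were found, and all 10 passed the filter on low counts that left 17780 genes. RNA came from 12 libraries of MDA-MB-468, a triple-negative breast cancer cell line labelled as wild type, in 4 groups of 3. The combination was 5 µM tazemetostat, an inhibitor of the histone methyltransferase EZH2, with 5 µM ipatasertib, an inhibitor of the kinase AKT. It was given for 24 h in medium with 2% FBS on 6 cm plates, to cells that had spent the preceding 5 days in tazemetostat or DMSO. Docetaxel, a taxane that stabilises microtubules, was given at 10 nM on 10 cm plates for 24 h in one group and for 8 h in another. The fourth group received DMSO, and its hours, medium and plate size are not given, so plate, medium and days in culture cannot be told apart from the treatments. No group received tazemetostat or ipatasertib alone.

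NRF2 is made continuously and, in resting cells, KEAP1 holds it for ubiquitination by a cullin 3 ligase and for degradation. Oxidants and electrophiles modify cysteines of KEAP1, NRF2 then accumulates, pairs with a small MAF protein in the nucleus and binds antioxidant response elements near its target genes. The targets make glutathione, reduce thioredoxin and peroxiredoxins and break down haem. Much of this control acts on NRF2 protein, which mRNA counts do not measure. Some tumours keep NRF2 active through changes in KEAP1 or NFE2L2.

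Libraries held 29820617 to 45807059 counts. Levels are given as normalised CPM (counts as CPM, scaled by TMM factors), in the order of libraries A, B and C, and a gene is said to have risen or fallen where edgeR's quasi-likelihood test gave a Benjamini-Hochberg adjusted p under 0.05 over the 17780 genes. The labels do not state that A, B and C were separate cultures, so the p-values measure the spread between libraries, which may be technical. Markers of the line (EPCAM, KRT5, KRT8, KRT19 and EGFR) summed to 11450 to 14730 CPM. The 5 immune markers summed to 15.3 to 15.9 CPM in the combination and to 2.10 to 2.95 CPM elsewhere. Nearly all of this was CSF1R, the 1 of the 5 that passed the filter. PTPRC averaged 0.191 CPM in the combination and 0.0206 to 0.0406 CPM elsewhere. LYZ was at 0 in the combination and averaged 0.0205 to 0.0325 CPM elsewhere. The 5 endothelial markers summed to 38.9 to 40.1 CPM in the combination and to 12.1 to 24.4 CPM elsewhere, mostly KDR, and 3 of the 5 passed the filter. Over DMSO, KDR and CDH5 rose in the combination, by 0.71 and 1.89 on the log2 scale (adjusted p = 3.08e-07 and 2.81e-06). VWF did not pass (adjusted p = 0.108). CDH5 averaged 2.43 CPM in the combination and 0.425 to 0.802 CPM elsewhere. The 6 fibroblast markers, 3 of them past the filter, summed to 22.2 to 23.4 CPM in the combination and to 12.3 to 22.4 CPM elsewhere. Most of this was COL1A1, at 16.8 to 18.9 CPM in the combination and 20.9 to 22.3 CPM in DMSO. LUM stood at 3.76 to 4.61 CPM and DCN at 0.248 to 0.389 CPM in the combination, and both were at 0 in the other 3 groups. The mitochondrial genome gave 8.49% ± 0.799 of counts in the combination, 6.38% ± 1.28 under docetaxel for 24 h, 8.55% ± 0.409 for 8 h, and 4.21% ± 0.244 in DMSO (SD, n = 3 each). The part of these markers in the results was not tested. With the mitochondrial genes left out of library sizes and scaling factors, the counts of called genes among the 10 were the same in each comparison.

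Since NRF2 acts through antioxidant response elements, the promoter windows of the set that hold the letters of its core are shown. RefSeq (GRCh38.p14) windows from 250 bases before to 50 after a transcription start were available for 8 of the 10 genes, in 11 windows, and not for HMOX1 or PRDX1. The core TGACNNNGC was searched on both strands, with each position given for the leftmost base of a match relative to the start. It was found in windows of 3 of the 8 genes, KEAP1, GCLM and TXNRD1, against 16.1% of the 27305 symbols of the table and 13.3% of its 35116 windows. The KEAP1 window is chr19:10502722-10503021 on the minus strand, the GCLM window is chr1:93909381-93909680 on the minus strand, and the TXNRD1 windows are chr12:104215529-104215828 and chr12:104286782-104287081 on the plus strand. Matches are in capitals, each sequence running 5′ to 3′ along its gene.
GCLM: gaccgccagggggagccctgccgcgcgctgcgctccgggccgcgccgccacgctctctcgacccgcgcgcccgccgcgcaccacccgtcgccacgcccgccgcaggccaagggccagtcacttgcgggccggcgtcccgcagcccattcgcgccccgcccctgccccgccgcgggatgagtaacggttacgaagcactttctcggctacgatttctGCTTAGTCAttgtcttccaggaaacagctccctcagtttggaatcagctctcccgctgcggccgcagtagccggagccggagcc
KEAP1: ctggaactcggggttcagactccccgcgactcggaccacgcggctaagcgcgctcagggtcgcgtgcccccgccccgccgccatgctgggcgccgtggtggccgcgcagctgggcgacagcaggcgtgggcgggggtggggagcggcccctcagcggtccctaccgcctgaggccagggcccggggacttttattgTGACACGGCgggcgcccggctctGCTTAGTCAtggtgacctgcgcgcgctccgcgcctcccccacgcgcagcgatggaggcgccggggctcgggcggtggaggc
TXNRD1, upstream start: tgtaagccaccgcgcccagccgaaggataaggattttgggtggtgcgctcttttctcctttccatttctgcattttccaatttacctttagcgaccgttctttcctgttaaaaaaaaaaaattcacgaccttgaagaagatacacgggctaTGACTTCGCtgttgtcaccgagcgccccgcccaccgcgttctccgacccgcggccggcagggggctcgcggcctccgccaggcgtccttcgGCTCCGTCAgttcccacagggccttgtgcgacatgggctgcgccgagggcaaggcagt
TXNRD1, downstream start: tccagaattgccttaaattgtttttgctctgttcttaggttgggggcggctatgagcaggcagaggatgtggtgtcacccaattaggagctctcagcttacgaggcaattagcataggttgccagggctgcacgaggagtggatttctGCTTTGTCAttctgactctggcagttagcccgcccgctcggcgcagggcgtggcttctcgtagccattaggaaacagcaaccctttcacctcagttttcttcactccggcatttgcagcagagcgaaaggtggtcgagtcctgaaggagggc
The GCLM and KEAP1 windows hold the same 9 letters, GCTTAGTCA, which match on the strand opposite the gene, 34 bases before the start of GCLM and 31 before that of KEAP1. KEAP1 holds a further match, TGACACGGC, at -54. TXNRD1 has TGACTTCGC at -99 and GCTCCGTCA at -8 in the upstream window and GCTTTGTCA at -102 in the downstream one. A match is a run of letters and not a measured binding site, and elements outside these 300 bases were not searched.

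Against DMSO most of the set was lower in the combination and most of it was higher at 8 h of docetaxel. The mean at 24 h lay between those of the other treatments in 9 of the 10 genes, all but GCLC. How many of all genes have this order was not counted, so it is not known to be a trait of the set. In the combination 1 of the 10 genes rose (OSGIN1) and 6 fell (KEAP1, GCLM, GCLC, TXNRD1, PRDX1 and SRXN1), where 31.4% of all genes tested rose, 31.4% fell and 62.8% changed in either direction. At 24 h of docetaxel 5 rose (GCLM, TXN, PRDX1, HMOX1 and OSGIN1) and 2 fell (TXNRD1 and SRXN1), against 20.2% of all genes higher, 22.7% lower and 42.9% in either direction. At 8 h 7 rose (NFE2L2, KEAP1, GCLM, TXN, PRDX1, HMOX1 and OSGIN1) and 1 fell (SRXN1), against 22.5% higher, 24.8% lower and 47.3% in either direction. Markers of the line moved there too: KRT5, EPCAM, KRT19 and KRT8 rose by 0.81, 0.47, 0.41 and 0.20 (adjusted p = 3.39e-11, 3.8e-08, 3.4e-06 and 0.00543) and EGFR fell by 0.31 (adjusted p = 0.00214), and their part in the result was not tested. In the combination KRT5 and KRT19 fell and EGFR rose, and at 24 h EPCAM rose and EGFR fell. The median log2 fold change of the 10 genes was -0.18 in the combination, 0.11 at 24 h and 0.22 at 8 h, beside medians over all genes of 0.01, 0.01 and -0.02. All 3 comparisons use the same 3 DMSO libraries, so they are not independent of one another. In RNA from bulk cultures, fewer cells of a type and less RNA per cell cannot be told apart.

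OSGIN1 rose in all 3 treatments and SRXN1 fell in all 3, patterns met by 4.33% and 8.07% of all genes. KEAP1, GCLM and PRDX1 fell in the combination and rose at 8 h of docetaxel, and 18.2% of all genes had calls in opposite directions in 2 of the treatments. The count at 24 h of docetaxel was 4 in place of 7 without DMSO library A, without DMSO library C or without library C of the 24 h group. The choice of scaling weighed most at 8 h, where 3994 of all genes rose and 4415 fell. Scaled by library totals, which moved the median of all genes to -0.18, 2288 rose and 6782 fell, and 4 of the 10 genes rose and 1 fell. Scaled by totals of counts per kilobase, which moved the median to -0.41, 634 rose and 10487 fell, and 3 of the 10 genes rose (GCLM, TXN and OSGIN1) and 5 fell (NFE2L2, KEAP1, GCLC, TXNRD1 and SRXN1). The per-kilobase scaling also moved the other medians, to -0.23 in the combination, with 3490 genes higher and 8243 lower in place of 5579 and 5578, and to -0.17 at 24 h, with 1309 higher and 6694 lower in place of 3583 and 4044.

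**Figure D1:**
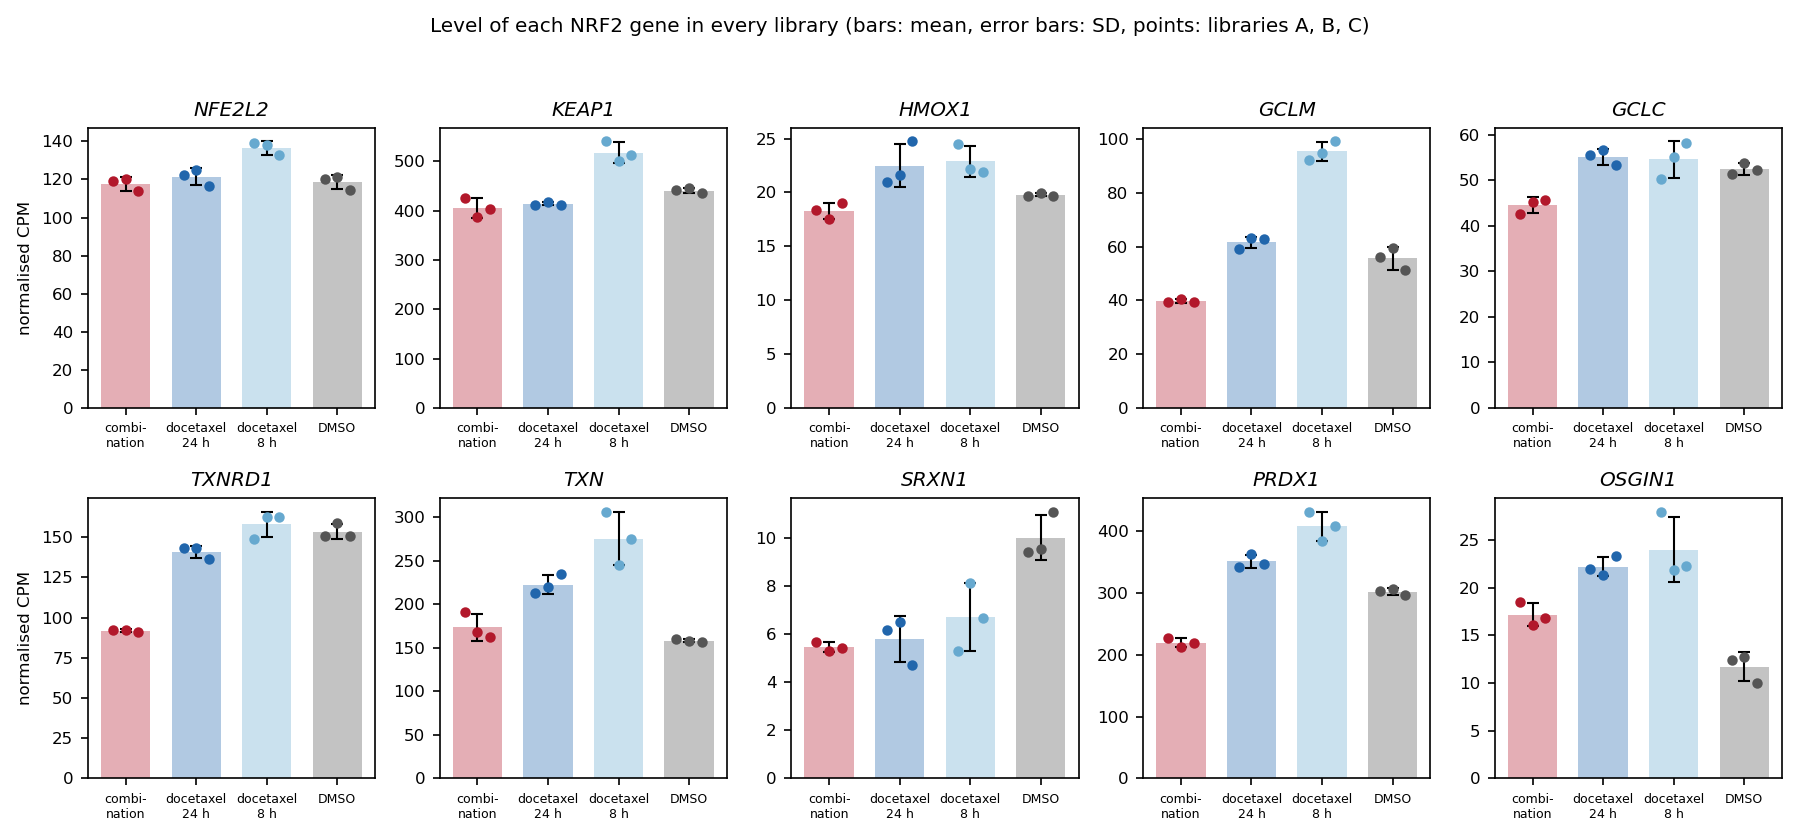
Normalised CPM (vertical axis, from 0, a scale of its own in each panel) of the 10 NRF2 genes in the combination, docetaxel 24 h, docetaxel 8 h and DMSO; bars are means of 3 libraries, error bars are SD and points are libraries. GCLM stands at 92.4 to 99.3 at 8 h of docetaxel and at 39.2 to 40.5 in the combination, and TXNRD1 stands at 90.9 to 92.5 in the combination.

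**Figure D2:**
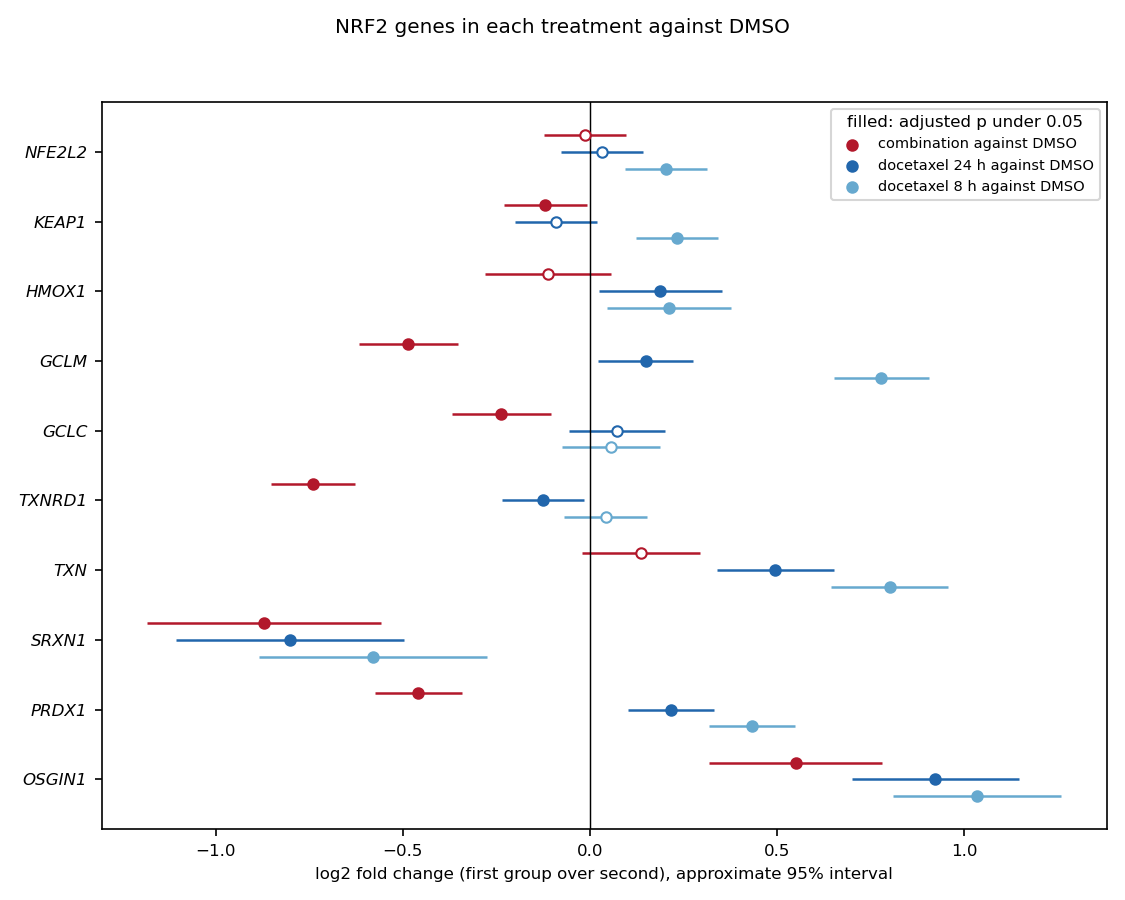
Log2 fold change of each gene in the combination, docetaxel 24 h and docetaxel 8 h against DMSO (horizontal axis), with approximate 95% intervals; filled points passed an adjusted p of 0.05. OSGIN1 lies right of 0 and SRXN1 lies left of 0 in all 3 treatments, while GCLM runs between -0.49 in the combination and 0.78 at 8 h.

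NFE2L2, on chromosome 2 (177227595 to 177392697, minus strand, GRCh38), rose at 8 h of docetaxel and did not pass the test in the other treatments. It stood at 119.2, 120.2 and 113.7 CPM in the combination, at 122.6, 125.2 and 116.7 CPM at 24 h of docetaxel, at 139.1, 138.0 and 132.6 CPM at 8 h, and at 120.5, 121.3 and 114.3 CPM in DMSO. The 3 libraries at 8 h lay above all others, and those of the combination and of 24 h overlapped DMSO. The rise at 8 h was 0.20 ± 0.05 on the log2 scale (SE; adjusted p = 0.00116), or 1.15-fold. The difference from DMSO was -0.01 in the combination (approximate 95% interval -0.12 to 0.10, adjusted p = 0.84) and 0.03 at 24 h (-0.08 to 0.14, adjusted p = 0.612). The sign at 8 h flipped to -0.19 (adjusted p = 0.00987) under per-kilobase totals, where the median of all genes was -0.41, and the call was lost under library totals (adjusted p = 0.424). AC019080.1, on the same strand, shares 17.6% of the exon length of NFE2L2 and had 0.724% of its counts. AGPS, on the opposite strand, shares 54 exonic bases, 0.903% of that length, and had 2703 counts per library, 64.4% of those of NFE2L2, and the strand setting of the counting is not given.

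KEAP1, on chromosome 19 (10486120 to 10503741, minus strand), encodes the cysteine sensor and substrate adaptor that presents NRF2 to the cullin 3 ligase. It stood at 426.3, 387.2 and 402.8 CPM in the combination, at 411.6, 417.8 and 412.1 CPM at 24 h, at 540.5, 500.0 and 512.0 CPM at 8 h, and at 440.8, 445.0 and 435.5 CPM in DMSO. The libraries at 8 h lay above DMSO and the other 2 groups lay below it, none overlapping DMSO. KEAP1 rose by 0.23 ± 0.05 on the log2 scale at 8 h (adjusted p = 0.000331) and fell by 0.12 ± 0.05 in the combination (adjusted p = 0.0343), while at 24 h the difference was -0.09 ± 0.05 (adjusted p = 0.138), called lower under library totals (-0.11, adjusted p = 0.0321) and per-kilobase totals (-0.27, adjusted p = 0.000163). The fall in the combination was lost when any single DMSO library was left out (adjusted p = 0.0863 without A, 0.0977 without B and 0.0652 without C), without library B of the combination (0.144), without its library C (0.0857) or with DESeq2's size factors (0.0555). The rise at 8 h was lost under library totals (adjusted p = 0.127) and was a fall of 0.16 (adjusted p = 0.0123) under per-kilobase totals.

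GCLM and GCLC encode the modifier and the catalytic subunit of glutamate-cysteine ligase, the rate-limiting enzyme of glutathione synthesis, and GCLM passed the test in all 3 treatments whereas GCLC passed in the combination alone. GCLM, on chromosome 1 (93885205 to 93909456, minus strand), stood at 39.2, 40.5 and 39.5 CPM in the combination, at 59.3, 63.1 and 62.7 CPM at 24 h, at 92.4, 94.9 and 99.3 CPM at 8 h, and at 56.3, 59.5 and 51.2 CPM in DMSO. The combination lay below and the 8 h libraries lay above every other library, while the 24 h libraries overlapped DMSO. GCLM rose by 0.78 ± 0.06 at 8 h, or 1.72-fold (adjusted p = 1.82e-10), and 10.0% of all genes changed at least as much. In the combination GCLM fell by 0.49 ± 0.06 (adjusted p = 1.22e-07), 1.4-fold lower than in DMSO. At 24 h the rise was 0.15 ± 0.06 (adjusted p = 0.0337), and it did not pass without library A or C of DMSO (adjusted p = 0.0504 and 0.192), without library B or C of the 24 h group (0.109 and 0.107), under library totals (0.0839) or without the filter on low counts (0.109). Under per-kilobase totals its sign at 24 h flipped to -0.03.

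GCLC, on chromosome 6 (53497341 to 53616970, minus strand), stood at 42.5, 45.2 and 45.8 CPM in the combination, at 55.6, 56.6 and 53.3 CPM at 24 h, at 50.4, 55.2 and 58.3 CPM at 8 h, and at 51.3, 53.8 and 52.2 CPM in DMSO. Its docetaxel libraries overlapped DMSO at both times, and the combination lay below all of them. GCLC fell by 0.24 ± 0.06 in the combination (adjusted p = 0.000972). Its differences were 0.07 at 24 h (interval -0.06 to 0.20, adjusted p = 0.319) and 0.06 at 8 h (-0.07 to 0.19, adjusted p = 0.433). The interval at 8 h leaves out the 0.78 of GCLM at 8 h, while the interval at 24 h holds the 0.15 of GCLM at 24 h. Within a library, where scaling plays no part, the ratio of GCLM to GCLC counts per kilobase was 1.47, 1.43 and 1.38 in the combination and 1.70, 1.78 and 1.88 at 24 h of docetaxel. It was 2.93, 2.74 and 2.72 at 8 h and 1.75, 1.76 and 1.56 in DMSO. The combination lay below DMSO, the 8 h group lay above it and the 24 h group overlapped it.

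TXN and TXNRD1, thioredoxin and the selenoenzyme that reduces it with NADPH, had their clearest changes in different treatments, TXN under docetaxel and TXNRD1 in the combination. TXN, on chromosome 9 (110243811 to 110256640, minus strand), stood at 191.1, 168.0 and 161.8 CPM in the combination, at 212.8, 219.6 and 235.1 CPM at 24 h, at 306.0, 244.8 and 274.6 CPM at 8 h, and at 159.5, 158.0 and 156.1 CPM in DMSO. The docetaxel libraries lay above DMSO at both times, and the lowest library of the combination lay just above the highest of DMSO. TXN rose by 0.80 ± 0.07 at 8 h, 1.74-fold (adjusted p = 2.98e-09), and by 0.50 ± 0.07 at 24 h, 1.41-fold (adjusted p = 4.31e-06). In the combination the difference was 0.14 ± 0.07 (interval -0.02 to 0.29) and did not pass (adjusted p = 0.0838). It passed when only the 2 groups were fitted (adjusted p = 0.0217) or without library C of the combination (0.0388), and its sign flipped to -0.10 under per-kilobase totals. Counts of the pseudogenes TXNP4 and TXNP6 came to 60 and 10 over all 12 libraries.

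TXNRD1, on chromosome 12 (104215779 to 104350305, plus strand), stood at 92.5, 92.4 and 90.9 CPM in the combination, at 143.0, 143.0 and 136.3 CPM at 24 h, at 149.2, 162.8 and 162.3 CPM at 8 h, and at 150.9, 159.0 and 150.8 CPM in DMSO. The combination lay far below every other library and the 8 h libraries overlapped DMSO. TXNRD1 fell by 0.74 ± 0.05 in the combination (adjusted p = 7.36e-12), 1.67-fold lower than in DMSO, and this call held under all 15 alternatives, with values of -0.98 to -0.71. At 24 h it fell by 0.13 ± 0.05 (adjusted p = 0.0364), and the call was lost when any single DMSO library was left out (adjusted p = 0.0743 without A, 0.197 without B and 0.074 without C) or without library C of the 24 h group (0.141). The difference at 8 h was 0.04 (interval -0.07 to 0.15, adjusted p = 0.497), and its sign flipped to -0.11 under library totals and to -0.35 under per-kilobase totals. The within-library ratio of TXN to TXNRD1 counts per kilobase was 12.1, 10.7 and 10.5 in the combination, 8.75, 9.02 and 10.1 at 24 h, 12.1, 8.83 and 9.94 at 8 h, and 6.21, 5.84 and 6.08 in DMSO. Every treated library stood above every DMSO library, the combination with less TXNRD1 and docetaxel with more TXN.

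PRDX1, a peroxiredoxin that reduces hydrogen peroxide with electrons from thioredoxin, lies on chromosome 1 (45511036 to 45523047, minus strand). It stood at 228.0, 212.7 and 219.3 CPM in the combination, at 343.1, 364.1 and 347.4 CPM at 24 h, at 431.7, 385.1 and 408.9 CPM at 8 h, and at 303.4, 307.2 and 296.3 CPM in DMSO. No group overlapped another, and the order from low to high was combination, DMSO, 24 h and 8 h. PRDX1 fell by 0.46 ± 0.05 in the combination (adjusted p = 3.83e-08) and rose by 0.22 ± 0.05 at 24 h (adjusted p = 0.00112) and by 0.43 ± 0.05 at 8 h (adjusted p = 2.24e-07). Both docetaxel calls were lost under per-kilobase totals (adjusted p = 0.63 at 24 h and 0.534 at 8 h). MMACHC, on the opposite strand, shares 24.9% of the exon length of PRDX1 and had 2.9% of its counts.

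SRXN1 encodes sulfiredoxin, which restores peroxiredoxins whose cysteine has been over-oxidised. It lies on chromosome 20 (646615 to 653370, minus strand) and stood at 5.70, 5.31 and 5.43 CPM in the combination, at 6.19, 6.50 and 4.72 CPM at 24 h, at 5.30, 8.13 and 6.70 CPM at 8 h, and at 9.44, 9.55 and 11.1 CPM in DMSO. All 9 treated libraries lay below all 3 of DMSO, and the treatments overlapped one another. SRXN1 fell by 0.87 ± 0.14 in the combination (adjusted p = 6.62e-06), by 0.80 ± 0.13 at 24 h (adjusted p = 3.99e-05) and by 0.58 ± 0.13 at 8 h (adjusted p = 0.000884), or 1.83-fold, 1.74-fold and 1.5-fold lower than in DMSO. All 3 calls held under all 15 alternatives tried for each. The gene had 164 to 410 counts per library, and 85.0% of its exon length also belongs to AL121758.1 on the same strand, which had 3.17 counts per library, so its level depends on how shared reads were assigned.

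The within-library ratio of PRDX1 to SRXN1 counts per kilobase was 71.0, 71.0 and 71.6 in the combination and 98.2, 99.3 and 130.6 at 24 h. It was 144.3, 84.0 and 108.1 at 8 h and 57.0, 57.0 and 47.3 in DMSO. Every treated library exceeded DMSO, the combination with both genes lower and docetaxel with PRDX1 higher and SRXN1 lower. The ratio of NFE2L2 to KEAP1 averaged 0.183 ± 0.0108 in the combination, 0.185 ± 0.00574 at 24 h, 0.166 ± 0.00648 at 8 h and 0.170 ± 0.00385 in DMSO (SD, n = 3 each). Over the 4 ratios and 5 comparisons, the smallest two-sided p of the exact permutation test was 0.1, the smallest that 3 libraries against 3 can give, and it was 0.133 after adjustment over the 20 comparisons, so none of these differences could pass 0.05.

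**Figure D3:**
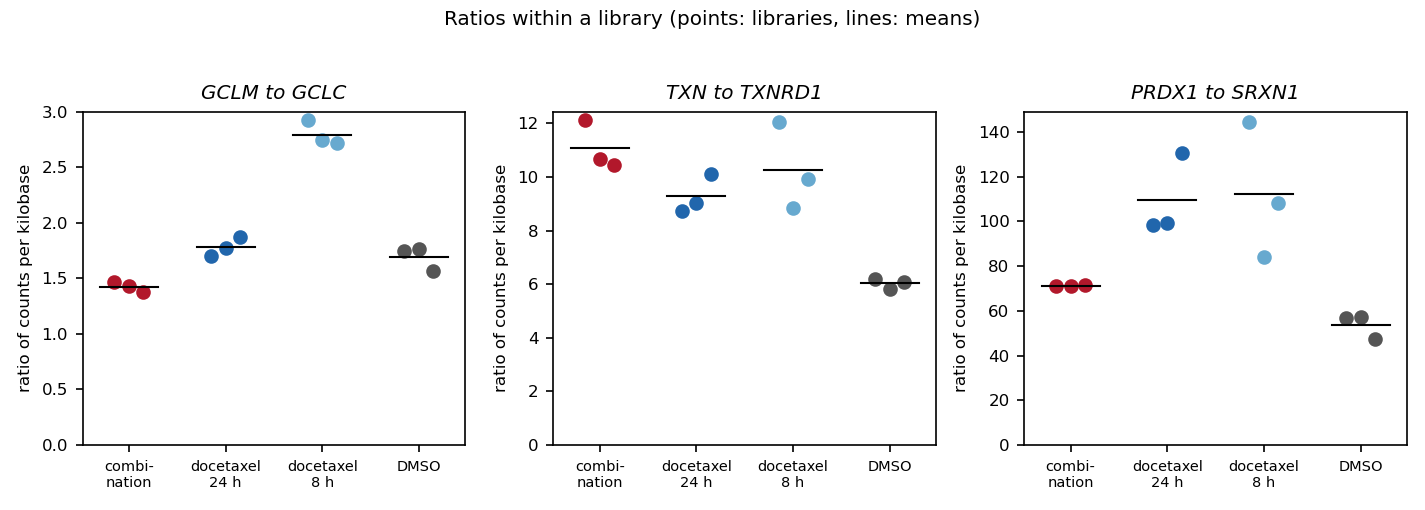
Ratio of counts per kilobase of GCLM to GCLC, TXN to TXNRD1 and PRDX1 to SRXN1 in each library (vertical axis, from 0), by group; points are libraries and lines are means of 3. GCLM to GCLC is highest at 8 h of docetaxel (2.72 to 2.93), and TXN to TXNRD1 and PRDX1 to SRXN1 are lowest in DMSO (5.84 to 6.21 and 47.3 to 57.0).

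HMOX1 encodes haem oxygenase 1, which splits haem into biliverdin, iron and carbon monoxide and is repressed by BACH1 at the elements that NRF2 binds. It lies on chromosome 22 (35380361 to 35394214, plus strand) and stood at 18.4, 17.5 and 19.0 CPM in the combination, at 21.0, 21.6 and 24.7 CPM at 24 h, at 24.5, 22.2 and 21.9 CPM at 8 h, and at 19.7, 19.9 and 19.7 CPM in DMSO. The docetaxel libraries lay above DMSO and the combination lay below it, each by a small margin. HMOX1 rose by 0.21 ± 0.07 at 8 h (adjusted p = 0.018) and by 0.19 ± 0.07 at 24 h (adjusted p = 0.0357), and in the combination the difference was -0.11 ± 0.07 (interval -0.28 to 0.06, adjusted p = 0.188). The call at 24 h was lost when any single DMSO library was left out (adjusted p = 0.078 without A, 0.0652 without B and 0.076 without C), without library C of the 24 h group (0.289) and with DESeq2 (0.0704). It was also lost under library totals (0.0656), without the filter on low counts (0.101) and under per-kilobase totals, where the difference was 0.0041 (0.976). The call at 8 h was lost without library A of that group (adjusted p = 0.111) and under library totals (0.535), and its sign flipped to -0.18 (0.0514) under per-kilobase totals.

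OSGIN1, known as an oxidative stress-induced growth inhibitor, lies on chromosome 16 (83948282 to 83966332, plus strand). It stood at 18.5, 16.1 and 16.8 CPM in the combination, at 21.9, 21.4 and 23.3 CPM at 24 h, at 28.0, 21.8 and 22.3 CPM at 8 h, and at 12.4, 12.8 and 9.96 CPM in DMSO. All 9 treated libraries lay above all 3 of DMSO, and the docetaxel libraries lay above the combination. OSGIN1 rose by 1.04 ± 0.10 at 8 h, 2.05-fold (adjusted p = 1.34e-08), by 0.92 ± 0.10 at 24 h, 1.9-fold (adjusted p = 1.46e-07), and by 0.55 ± 0.10 in the combination, 1.46-fold (adjusted p = 4.73e-05). Of all genes, 5.26% changed at least as much at 8 h and 5.46% at 24 h, against 34.0% in the combination. The 3 calls held under all 15 alternatives tried for each.

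Between the docetaxel times, 6 of the 10 genes were lower at 24 h than at 8 h (NFE2L2, KEAP1, GCLM, TXN, TXNRD1 and PRDX1) and none was higher, where 18.3% of all genes were lower, 16.6% higher and 34.9% changed in either direction. GCLM had the largest of these differences, -0.63 ± 0.05 (adjusted p = 6.35e-09), or 1.55-fold lower at 24 h, and 12.7% of all genes differed at least as much. KEAP1 was lower by 0.32 ± 0.05 (adjusted p = 1.37e-05) and TXN by 0.31 ± 0.07 (adjusted p = 0.00103). The libraries of the docetaxel times did not overlap in these 6 genes, and the share of all genes without overlap was not counted. PRDX1, NFE2L2 and TXNRD1 were lower by 0.22, 0.17 and 0.17, with adjusted p = 0.00146, 0.00751 and 0.00831. The other 4 did not pass: the intervals of the difference were -0.19 to 0.14 for HMOX1, -0.11 to 0.15 for GCLC, -0.32 to 0.10 for OSGIN1 and -0.54 to 0.10 for SRXN1. Library totals, which moved the median of all genes to 0.14 and the genes called to 5387 higher and 1659 lower in place of 2947 and 3261, left 3 of the 10 called (GCLM, KEAP1 and TXN, all lower). Per-kilobase totals, with a median of 0.22 and 6941 genes higher and 949 lower, left GCLM lower and called GCLC higher.

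Set against docetaxel at the same 24 h, the combination had 7 of the 10 genes lower (GCLM, GCLC, TXN, TXNRD1, PRDX1, HMOX1 and OSGIN1) and none higher, where 31.7% of all genes were lower, 32.1% higher and 63.8% changed in either direction. The largest differences were in PRDX1, -0.68 ± 0.05 (adjusted p = 6.02e-11), GCLM, -0.63 ± 0.06 (adjusted p = 1.54e-09), and TXNRD1, -0.61 ± 0.05 (adjusted p = 1.86e-10), 1.53 to 1.6-fold lower. OSGIN1, TXN, GCLC and HMOX1 were lower by 0.37, 0.36, 0.31 and 0.30, with adjusted p = 0.00151, 7.7e-05, 5.44e-05 and 0.000926. In all 7 genes the libraries of the combination and of docetaxel did not overlap. The share of all genes without overlap was not counted. The median of the 10 genes was -0.33, against 0.00 for all genes. NFE2L2 (interval -0.16 to 0.06), KEAP1 (-0.14 to 0.08) and SRXN1 (-0.40 to 0.26) did not pass and their libraries overlapped. All 7 calls held under all 15 alternatives. The plates also differed between these groups, and the labels give no serum for docetaxel. Cells of the combination had spent the preceding 5 days in tazemetostat or DMSO, and the labels give no such days for docetaxel.

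**Figure D4:**
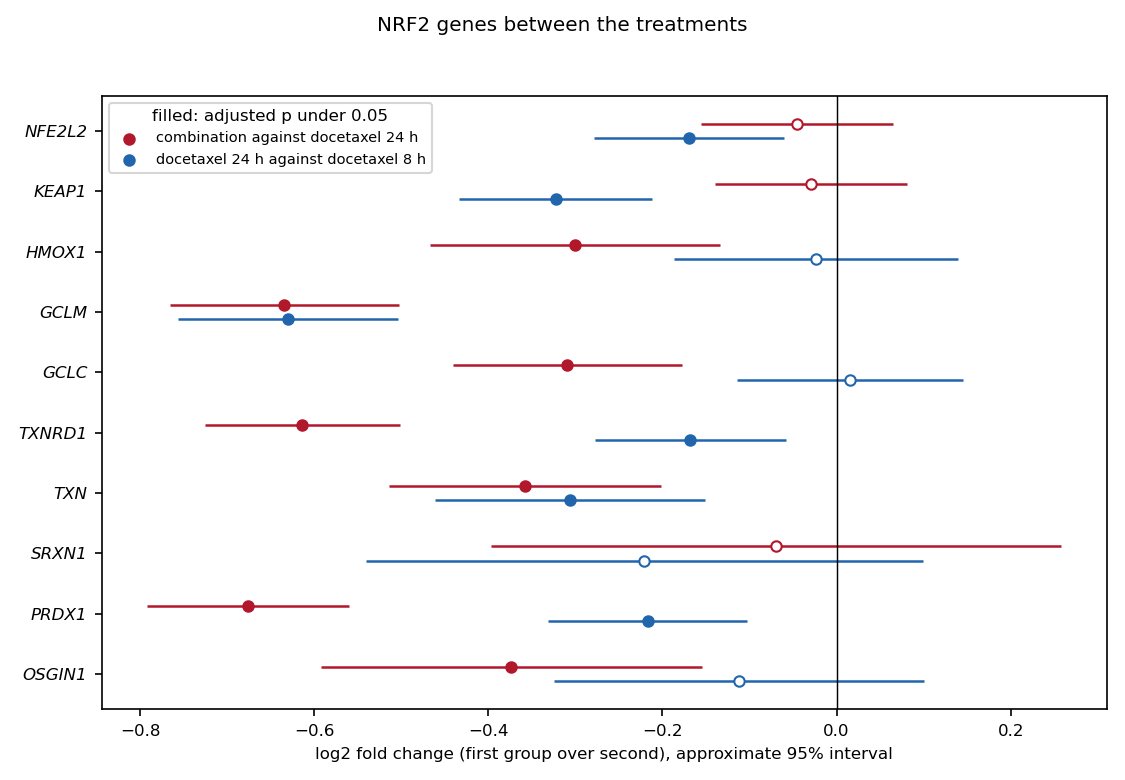
Log2 fold change of each gene for the combination over docetaxel 24 h and for docetaxel 24 h over docetaxel 8 h (horizontal axis), with approximate 95% intervals; filled points passed an adjusted p of 0.05. GCLM lies at -0.63 in both, and PRDX1 is the leftmost point of the first comparison at -0.68.

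Per kilobase of merged exon, PRDX1, TXN and KEAP1 had the highest levels of the 10 genes in every group. Merged exons take in every annotated exon of a gene, whether or not it is used in these cells. The order of different genes is therefore approximate. PRDX1 came first in docetaxel at 24 h (231.0 ± 7.28 CPM per kilobase), at 8 h (268.4 ± 15.3) and in DMSO (198.6 ± 3.66), and TXN followed at 194.8 ± 9.99, 240.9 ± 26.8 and 138.2 ± 1.48 (SD, n = 3 each). In the combination TXN stood at 152.0 ± 13.5 and PRDX1 at 144.5 ± 5.07 CPM per kilobase, an order within their spread. In DMSO KEAP1 had 117.1 ± 1.27, TXNRD1 22.9 ± 0.703, NFE2L2 19.9 ± 0.643, GCLM 10.3 ± 0.772, HMOX1 8.22 ± 0.0526 and GCLC 6.07 ± 0.146 CPM per kilobase. SRXN1 (3.72 ± 0.346) and OSGIN1 (3.39 ± 0.442) were the lowest there, their ranges overlapping. TXNRD1 was above NFE2L2 in DMSO and below it in the combination (13.7 ± 0.139 against 19.7 ± 0.59 CPM per kilobase). Under docetaxel the ranges of NFE2L2 and TXNRD1 overlapped at both times, as did those of OSGIN1 and GCLC. HMOX1 and GCLM overlapped in the combination, as did OSGIN1 and GCLC, and TXN and PRDX1 overlapped at 8 h.

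Over the 12 libraries the log2 levels of PRDX1 and GCLM had a Pearson r of 0.94, the highest of any pair of the 10 genes, followed by OSGIN1 with TXN (0.89) and TXNRD1 with GCLC (0.89). OSGIN1 and SRXN1 had the lowest, -0.74. Among 11087 protein-coding genes the closest to NFE2L2 were ENOX1 (r = 0.95), SNRNP27 (0.95) and TPX2 (0.94), and with library totals in place of TMM these r were 0.69, 0.79 and 0.61. The closest to KEAP1 were NPDC1, TBL3 and LRRC45 (0.98 each), and the closest to HMOX1 were NSUN5, TRPM2 and ARF1 (0.97, 0.97 and 0.96). These points share libraries and 4 group means, and the values are descriptions of 12 libraries.

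Of 15 genes that regulate NRF2, all tested, 7 rose and 5 fell in the combination (median -0.08), 2 rose and 6 fell at 24 h of docetaxel (-0.11), and 3 rose and 6 fell at 8 h (-0.00). Over all genes 31.4% rose and 31.4% fell in the combination, 20.2% rose and 22.7% fell at 24 h, and 22.5% rose and 24.8% fell at 8 h. MAFF, a small MAF partner of NRF2, stood at 60.1 ± 1.71 CPM in the combination, 37.3 ± 0.941 CPM at 24 h, 19.8 ± 1.02 CPM at 8 h and 19.9 ± 0.186 CPM in DMSO (SD, n = 3 each), and rose by 1.60 ± 0.06 in the combination (adjusted p = 1.27e-16) and by 0.91 ± 0.06 at 24 h (adjusted p = 6.52e-11). SQSTM1, the autophagy receptor p62 that can sequester KEAP1, rose by 0.78 ± 0.05 in the combination (adjusted p = 1.3e-12), as did NFE2L3, a relative of NFE2L2, by 0.44 ± 0.07 (5.02e-06), whereas PGAM5, a mitochondrial phosphatase that binds KEAP1, fell by 0.87 ± 0.05 (6.48e-13). Under docetaxel PGAM5 rose, by 0.19 at 24 h and 0.33 at 8 h (adjusted p = 0.00212 and 4.75e-06). SQSTM1 also rose at 8 h, by 0.18 (adjusted p = 0.00246). BACH1, the repressor that competes with NRF2, was 0.33 ± 0.08 higher in the combination (adjusted p = 0.00087) and 0.37 ± 0.08 lower at 8 h (adjusted p = 0.000676), and differed by -0.01 at 24 h (adjusted p = 0.96). At 8 h RBX1, the RING subunit of the KEAP1 ligase, rose by 0.49 ± 0.08 (adjusted p = 1.71e-05), and FBXW11 and GSK3B, which act in a second route of NRF2 degradation, fell by 0.45 ± 0.06 and 0.39 ± 0.05 (adjusted p = 2.05e-06 and 1.5e-06). FBXW11 and GSK3B also fell in the combination, by 0.36 and 0.37 (adjusted p = 1.57e-05 and 1.29e-06). At 24 h they fell by 0.26 and 0.17 (adjusted p = 0.0011 and 0.00888). At 24 h DPP3, which binds KEAP1, BTRC, a paralogue of FBXW11, and NFE2L1, a relative of NFE2L2, fell by 0.40, 0.39 and 0.38 (adjusted p = 1e-06, 0.000359 and 2.41e-06). DPP3 also fell by 0.41 in the combination (adjusted p = 1.89e-07), and BTRC by 0.22 at 8 h (adjusted p = 0.0262). NFE2L1 rose by 0.15 in the combination (adjusted p = 0.0091) and fell by 0.17 at 8 h (adjusted p = 0.00714). Under per-kilobase totals the calls of BACH1 in the combination and of RBX1 at 8 h were lost (adjusted p = 0.386 and 0.294).

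Among the other NRF2 targets, 28 of 29 were tested. Of these, 8 rose and 12 fell in the combination (median -0.14), 6 rose and 4 fell at 24 h (-0.03), and 14 rose and 6 fell at 8 h (0.19), where 22.5% of all genes rose and 24.8% fell. In the combination the share of all genes was 31.4% in each direction, and at 24 h it was 20.2% higher and 22.7% lower. NQO1, a quinone reductase often used as a readout of NRF2, stood at 135.6 ± 8.53, 134.8 ± 9.26 and 173.6 ± 13.0 CPM in the combination, at 24 h and at 8 h, and at 112.2 ± 1.35 CPM in DMSO. It rose in all 3, by 0.27 ± 0.06, 0.26 ± 0.06 and 0.63 ± 0.06 (adjusted p = 0.000388, 0.00102 and 1.51e-08), but its calls in the combination and at 24 h were lost under per-kilobase totals (adjusted p = 0.667 and 0.302). SLC7A11, the cystine transporter that feeds glutathione synthesis, was lower in the combination by 0.73 ± 0.08 (adjusted p = 9.85e-08) and at 8 h by 0.69 ± 0.08 (adjusted p = 6.08e-07), and differed by -0.08 ± 0.08 at 24 h (adjusted p = 0.452). Its means were 14.7, 23.0 and 15.2 CPM in the combination, at 24 h and at 8 h, and 24.4 CPM in DMSO, so at 8 h its direction was opposite to that of GCLM.

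In the combination FTL, the light chain of the iron store ferritin, rose by 1.16 ± 0.06 (adjusted p = 1.88e-13), with 431.8 ± 27.2 CPM against 193.0 ± 2.87 CPM in DMSO. ALDH3A1, an aldehyde dehydrogenase, rose by 2.00 ± 0.15 (adjusted p = 4.35e-11) and ABCC3, an efflux pump, rose to 51.6 ± 1.94 CPM in the combination, against 25.8 ± 1.08 CPM in DMSO (adjusted p = 7.73e-12). ALDH3A1 also rose at 8 h, by 1.18 (adjusted p = 1.22e-06). Its means were 7.71 CPM in the combination, 4.38 CPM at 8 h and 1.95 CPM in DMSO. ABCC3 fell at 24 h, by 0.27 (adjusted p = 0.00294). AKR1B10, an aldo-keto reductase, fell by 1.41 ± 0.16 in the combination (adjusted p = 7.68e-08) and rose by 0.49 ± 0.14 at 8 h (adjusted p = 0.00472). Its means were 2.23 CPM in the combination, 8.415 CPM at 8 h and 6.00 CPM in DMSO. SLC48A1, a haem transporter, rose by 0.43 ± 0.05 in the combination (adjusted p = 3.42e-07). It fell by 0.47 ± 0.06 at 24 h of docetaxel (adjusted p = 6.13e-07) and by 0.84 ± 0.06 at 8 h (adjusted p = 1.07e-10). PIR, which encodes pirin, rose by 0.40 ± 0.10 and 0.73 ± 0.10 at 24 h and 8 h (adjusted p = 0.00194 and 1.69e-06). CBR1, a carbonyl reductase, rose by 0.41 ± 0.07 at 24 h (adjusted p = 6.52e-05) and by 0.56 ± 0.07 at 8 h (adjusted p = 8.27e-07). The call of PIR at 24 h was lost under per-kilobase totals (adjusted p = 0.0781).

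Of 19 other antioxidant enzymes and their partners, 18 were tested. In the combination 8 rose and 7 fell (median 0.06), at 24 h 7 rose and 4 fell (0.09), and at 8 h 6 rose and 1 fell (0.12). Of all genes, 62.8% changed in either direction in the combination, 42.9% at 24 h and 47.3% at 8 h. MSRA, a methionine sulfoxide reductase, had 11.9 ± 1.31 CPM in the combination and 0.663 ± 0.148 CPM in DMSO (SD, n = 3 each), a rise of 4.16 ± 0.18 (adjusted p = 4.95e-15). GLRX, glutaredoxin, rose by 1.53 ± 0.09 in the combination (adjusted p = 1.21e-12) and by 0.59 ± 0.09 at 24 h (adjusted p = 2.49e-05), while the mitochondrial enzymes SOD2 and PRDX3 fell by 0.75 ± 0.05 and 0.51 ± 0.06 in the combination (adjusted p = 1.96e-11 and 9.06e-08). SOD1, the cytosolic superoxide dismutase, rose by 0.53 ± 0.06 at 24 h (adjusted p = 3.55e-07) and by 0.70 ± 0.06 at 8 h (adjusted p = 3.75e-09). GSTP1, PRDX4 and PRDX6 rose by 0.48, 0.48 and 0.45 at 8 h (adjusted p = 2.73e-06, 1.15e-06 and 1.72e-06), and under per-kilobase totals these 3 calls were lost. TXNIP, an inhibitor of thioredoxin, had 4 counts over the 12 libraries and was not tested.

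Of 7 heat shock genes, 3 rose and 2 fell in the combination (median 0.11), 5 rose at 24 h (0.21) and 6 rose at 8 h (0.30), beside 31.4% of all genes higher and 31.4% lower in the combination, 20.2% higher at 24 h and 22.5% higher at 8 h. HSPA1A, an inducible HSP70 chaperone, rose by 0.59 ± 0.06, 0.24 ± 0.06 and 0.84 ± 0.06 in the combination, at 24 h and at 8 h (adjusted p = 4.08e-09, 0.00123 and 7.96e-11), though its reads cannot be told safely from those of the near-identical HSPA1B and its call at 24 h was lost under per-kilobase totals (adjusted p = 0.461). HSPB1, a small heat shock protein, rose by 0.34 ± 0.07 at 24 h (adjusted p = 0.00021), and HSP90AA1 fell by 0.33 ± 0.06 in the combination (adjusted p = 1.9e-05) and rose by 0.38 ± 0.06 at 8 h (adjusted p = 6.1e-06), with its sign at 8 h flipping to -0.01 under per-kilobase totals. Medians over all genes were 0.01 in the combination, 0.01 at 24 h and -0.02 at 8 h.

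**Figure D5:**
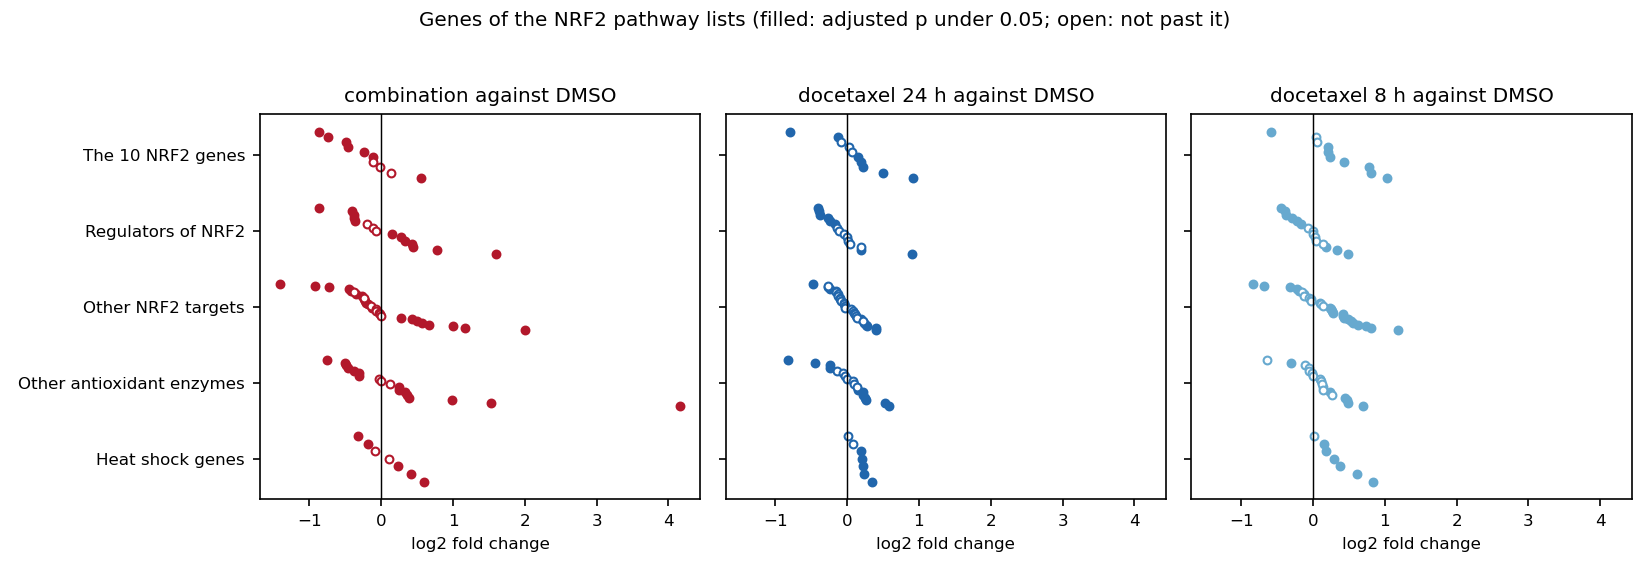
Log2 fold change against DMSO (horizontal axis) of the 10 NRF2 genes and of the genes tested in 4 lists, in the combination, docetaxel 24 h and docetaxel 8 h; each point is a gene and filled points passed an adjusted p of 0.05. The lists spread to both sides of 0 in the combination, where MSRA is the rightmost point at 4.16, and no heat shock gene lies left of 0 at 8 h.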

How the data were processed

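Each library has a deposited table of whole-number counts by gene symbol. How strand, annotation and counting were handled is not given in the sources used here. Per the submitters' processing notes, fastp, HISAT2 2.0.5, DESeq2 and hg38 were named. Per the labels, poly(A) RNA was selected and random hexamers primed the cDNA. A further deposited table holds a signal, which the authors made as counts over a size factor per library of 0.829 to 1.386 (checked within a relative tolerance of 1e-06). It was expected to hold comparisons, and its factors served as an alternative scaling. Of 58735 rows, 58708 had a symbol in GENCODE release 29 (GRCh38), the source of coordinates and exon lengths; 27 had none, and 1745 rows of repeated symbols were kept apart.

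After filterByExpr (minimum count 10) and TMM scaling (factors of 0.917 to 1.05), the 12 libraries entered 1 model of 4 group means in edgeR 4.0.16 (R 4.3.3), which left 8 residual degrees of freedom. The quasi-likelihood test was two-sided, for 5 comparisons, with Benjamini-Hochberg adjustment over 17780 genes. SEs were taken from the log2 fold change and its F statistic (size over root F), and intervals use t on 8 degrees of freedom, so they are approximate. The fits were tested on simulated data. Normalised CPM use no prior count, and correlations use log2 CPM with a prior count of 2. PCR copies were not marked. DESeq2 1.42.0, other scalings, no filter, a fit of only the groups compared, a replicate block and leaving out each library were the alternatives; scaling by totals of counts per kilobase was added after seeing the data.

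The 10 genes, the 4 lists and the rule were chosen with earlier results of these data known. The rule names, per list and comparison with DMSO, up to 4 called genes of largest fold change with at least 5 CPM in a group, the 3 genes most like NFE2L2, KEAP1 and HMOX1, and NQO1, SLC7A11, BACH1 and TXNIP. HSPA1B, HSPH1, BAG3, TXNRD3, and FTL and PRDX6 at 24 h also met the rule and are not described. A gene named for one comparison may also have been called in others, and not all such calls are given. Those that are given come without their values under the alternatives. A further immune marker is not reported here.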

Additional observations from a re-analysis of the deposited data

Results flagged for a closer look

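For 6 of the 10 genes the effect of docetaxel against DMSO differed between 24 h and 8 h (edgeR's quasi-likelihood test on that difference), where 34.9% of all genes did. Both effects use the same DMSO libraries, which cancel, so this is the comparison of 24 h with 8 h given above and not a further result. The effect at 24 h minus that at 8 h, on the log2 scale, was -0.63 for GCLM, -0.32 for KEAP1, -0.31 for TXN, -0.22 for PRDX1, -0.17 for NFE2L2 and -0.17 for TXNRD1. Scaled by library totals the difference did not pass for PRDX1, NFE2L2 and TXNRD1 (adjusted p = 0.139, 0.559 and 0.584), and with per-kilobase totals it passed for GCLM and for none of the other 5. The difference in GCLM was -0.50 and -0.42 under these scalings. With 3 libraries a group, single libraries that stand apart from their group were not looked for.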

How the results depend on the processing

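Among the values of the 10 genes under the alternatives, 678 kept direction and side of the threshold. With the same sign, 36 lost the call and 8 gained one, and 28 changed sign, counted apart whether or not the call changed too. Among these 28, under per-kilobase totals, GCLC and TXNRD1 at 8 h gained a call (adjusted p = 0.000353 and 3.2e-05). GCLM at 24 h and HMOX1 at 8 h lost theirs (adjusted p = 0.749 and 0.0514). Genes called over the whole table stayed within 1.5 times the count reported under every alternative. The count among the 10 genes at 24 h of docetaxel against DMSO was 4 to 7 when single libraries were left out. At 8 h it was 5 with library totals, and between 24 h and 8 h it was 3 with library totals and 2 with per-kilobase totals, in place of 6; these scalings move the median of all genes, and no further cause was tested. Against DMSO, per-kilobase totals changed the sign of TXN in the combination (-0.10), of NFE2L2, GCLM and GCLC at 24 h (-0.15, -0.032 and -0.11), and of NFE2L2, KEAP1, HMOX1, GCLC, TXNRD1, HSP90AA1 and HSPH1 at 8 h (-0.19, -0.16, -0.18, -0.33, -0.35, -0.012 and -0.094). Library totals gave -0.10 for GCLC and -0.11 for TXNRD1 at 8 h. Between 24 h and 8 h, per-kilobase totals gave 0.040 for NFE2L2, 0.040 for TXNRD1, 0.18 for HMOX1 and 0.099 for OSGIN1, and library totals 0.11 for HMOX1 and 0.021 for OSGIN1. The other changes of sign were in differences near 0 that did not pass, when single libraries were left out. NFE2L2 in the combination ranged over -0.036 to 0.012 and BACH1 at 24 h over -0.040 to 0.050 (0.0038 with only those groups fitted). Between 24 h and 8 h HMOX1 ranged over -0.11 to 0.029, GCLC over -0.042 to 0.062 and OSGIN1 over -0.18 to 0.014. Between the combination and 24 h KEAP1 ranged over -0.068 to 0.0033 and SRXN1 over -0.20 to 0.017. SRXN1 between 24 h and 8 h was called lower without 8 h A (-0.37, adjusted p = 0.0339). Per-kilobase totals called NFE2L2 and HMOX1 lower in the combination (-0.25 and -0.35) and KEAP1 lower at 24 h (-0.27). Library totals lowered the r of NFE2L2 with ENOX1, SNRNP27 and TPX2 to 0.69, 0.79 and 0.61.

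Libraries with the same letter shared little deviation: of 18 pairs of libraries with the same letter 1 had a correlation of deviations above 0.1, with a range of -0.13 to 0.14. These values cannot show whether the letters A, B and C pair cultures, since pairs with little in common would give the same. With the letter as a block 11218, 7767 and 8490 genes were called in the combination, at 24 h and at 8 h against DMSO, 6369 between 24 h and 8 h and 11403 between the combination and 24 h. The counts among the 10 genes were 7, 7, 8, 6 and 7, as without it. SRXN1, with 164 to 410 counts per library, had the widest intervals, and 3 libraries a group limit the precision of all values.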

Other observations

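In the combination FTH1, the heavy chain of ferritin and one of the listed NRF2 targets, moved with FTL. It had 3948 ± 238 CPM in the combination against 2489 ± 161 CPM in DMSO (SD, n = 3 each), a rise of 0.67 ± 0.06 on the log2 scale (edgeR's quasi-likelihood test, adjusted p = 4.54e-09), and was chosen after its values were seen. Of the 5 markers of the line 1 rose and 2 fell in the same comparison. EGFR, the receptor known to be amplified in this line, rose by 0.35 ± 0.08 (adjusted p = 0.000364), while the basal keratin KRT5 fell by 0.79 ± 0.05 (adjusted p = 5.66e-12) and KRT19 fell by 0.50 ± 0.06 (adjusted p = 7.3e-08).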
